A study of Homo sapiens with 12 samples.

Results

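A group of 10 secreted factors that act on blood or lymph vessels was followed in the established human melanoma line MV3 after exposure to macrophage vesicles. They were chosen by name, with earlier results of these data known (ESM1, STC1, STC2, VEGFA, VEGFB, VEGFC, ANGPTL4, ADM, PDGFA and FGF2). All 10 were found among the 28085 genes of the count table. For each gene the transcript with the highest sum of counts across 12 libraries was used, and all 10 were among the 13125 genes with enough counts to be tested. The cells, in 12-well plates, were kept for 3 h in RPMI medium whose 1% serum had been depleted of vesicles. They then received PBS (Ctrl) or 1e10 particles per well of extracellular vesicles (EVs) for 24 h. The vesicles were obtained by ultracentrifugation of medium from THP-1, a monocytic leukaemia line of human origin, after 48 h of polarization to M0, M1 or M2 macrophages. There were 3 poly(A) RNA libraries for each of 4 groups, called Ctrl, M0 EV, M1 EV and M2 EV here. Which agents polarized the cells is not in the labels, and they do not say whether the replicates were separate cultures or vesicle preparations, so errors and p-values measure only the spread between these libraries.

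Vascular endothelial growth factors bind receptor tyrosine kinases on endothelial cells: VEGFA drives the sprouting of blood vessels, VEGFC that of lymphatic vessels, and VEGFB has weaker sprouting activity. PDGFA and FGF2 are mitogens for mesenchymal cells, and FGF2 also for endothelium. ESM1 (endocan) is a secreted proteoglycan that marks endothelial tip cells, the stanniocalcins STC1 and STC2 are secreted glycoproteins, ANGPTL4 inhibits lipoprotein lipase and affects vessel permeability, and ADM encodes the vasodilator peptide adrenomedullin. VEGFA, ANGPTL4 and ADM are known targets of the hypoxia-inducible factors. The libraries measure RNA in the melanoma cells and not the secreted proteins.

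The promoters of 3 factors are shown first, those of the factor that rose most (ESM1), of the only one that fell (ADM) and of ANGPTL4, because these are the members with the letters TATAAA before the start. The sequences are the 250 bases before the start given in the promoter table, from RefSeq on GRCh38.p14, 5′ to 3′ on the gene's strand. Capitals mark TATAAA and the core of the hypoxia response element (ACGTG or GCGTG), searched on both strands, so that a core on the other strand reads CACGT or CACGC.
ESM1 (chr5:54985594-54985843, minus strand): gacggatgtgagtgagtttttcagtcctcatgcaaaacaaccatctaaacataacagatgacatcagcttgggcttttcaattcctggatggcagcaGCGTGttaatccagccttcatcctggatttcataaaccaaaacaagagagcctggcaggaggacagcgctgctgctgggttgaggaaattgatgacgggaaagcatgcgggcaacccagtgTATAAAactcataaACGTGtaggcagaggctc
ANGPTL4 (chr19:8363905-8364154, plus strand): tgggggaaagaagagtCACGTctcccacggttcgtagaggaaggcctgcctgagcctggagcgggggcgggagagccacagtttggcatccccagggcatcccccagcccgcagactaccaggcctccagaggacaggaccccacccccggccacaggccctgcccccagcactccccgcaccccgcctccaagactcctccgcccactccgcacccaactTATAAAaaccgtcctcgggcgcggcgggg
ADM (chr11:10304823-10305072, plus strand): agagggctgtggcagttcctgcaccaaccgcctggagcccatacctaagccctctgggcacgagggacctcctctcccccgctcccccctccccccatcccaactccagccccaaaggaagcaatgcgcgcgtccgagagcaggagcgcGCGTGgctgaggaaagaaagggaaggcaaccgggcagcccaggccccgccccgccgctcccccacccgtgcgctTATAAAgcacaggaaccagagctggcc
TATAAA began 32, 29 and 27 bases before the start in ESM1, ANGPTL4 and ADM (positions -32, -29 and -27). Of the 8 members with a promoter in the RefSeq table (all but STC1 and VEGFA), these 3 had it, where 5.38% of 10495 promoters of tested genes of the same length did. For FGF2 (122826581 to 122826830) and PDGFA (520227 to 520476) the window lies partly or wholly inside the gene span given below, because the table's start lies within that span. The hypoxia core was found in all 8, and in 57.6% of the promoters of tested genes. A loose form of the NF-kB site (GGG, any 5 bases, CC), searched on both strands, was in 5 of the 8 (not in ESM1, STC2 or PDGFA) and in 68.9% of the promoters of tested genes. TGANTCA, the AP-1 site, was in none of the 8 and in 3.94%. No base of TATAAA overlapped a hypoxia core in the 3 sequences. A match is a run of letters and was not tested as a binding site.

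The gene totals were 9698645 to 14383240 counts per library. Levels are counts scaled to a common library total (CPM) with TMM factors, which correct for differences in library make-up, and they are compared only within a gene. The members had 65 (ANGPTL4) to 5756 (STC2) counts in a library. The sum of 12 melanoma markers was 1358 to 1440 CPM in M1 EV and 1658 to 1743 CPM in the other groups, nearly all from AXL, EGFR and SOX9. The mean of AXL was 1311 CPM in Ctrl and 1039 CPM in M1 EV, and that of EGFR 261.8 and 275.3 CPM. TYR and S100B had no count in any library, and SOX10 had 4 counts in all, in M2 EV. ERG and TEK, markers of endothelium, were at 0 in every library, KDR had at most 3 counts in a group, and the sum of 12 endothelial markers was 19.33 to 20.61 CPM in Ctrl, 21.15 to 23.80 CPM in M0 EV, 21.61 to 22.57 CPM in M1 EV and 20.39 to 21.59 CPM in M2 EV, led by ROBO4. Of 18 macrophage markers, 6 were at 0 in every library, among them CD163, TYROBP, CD86 and C1QA. Their sum was 55.52 to 62.41 CPM in Ctrl, 58.36 to 60.10 CPM in M0 EV, 67.96 to 69.17 CPM in M1 EV and 60.19 to 62.83 CPM in M2 EV, mostly CD68. The part of these markers in the results was not tested.

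**Figure D1:**
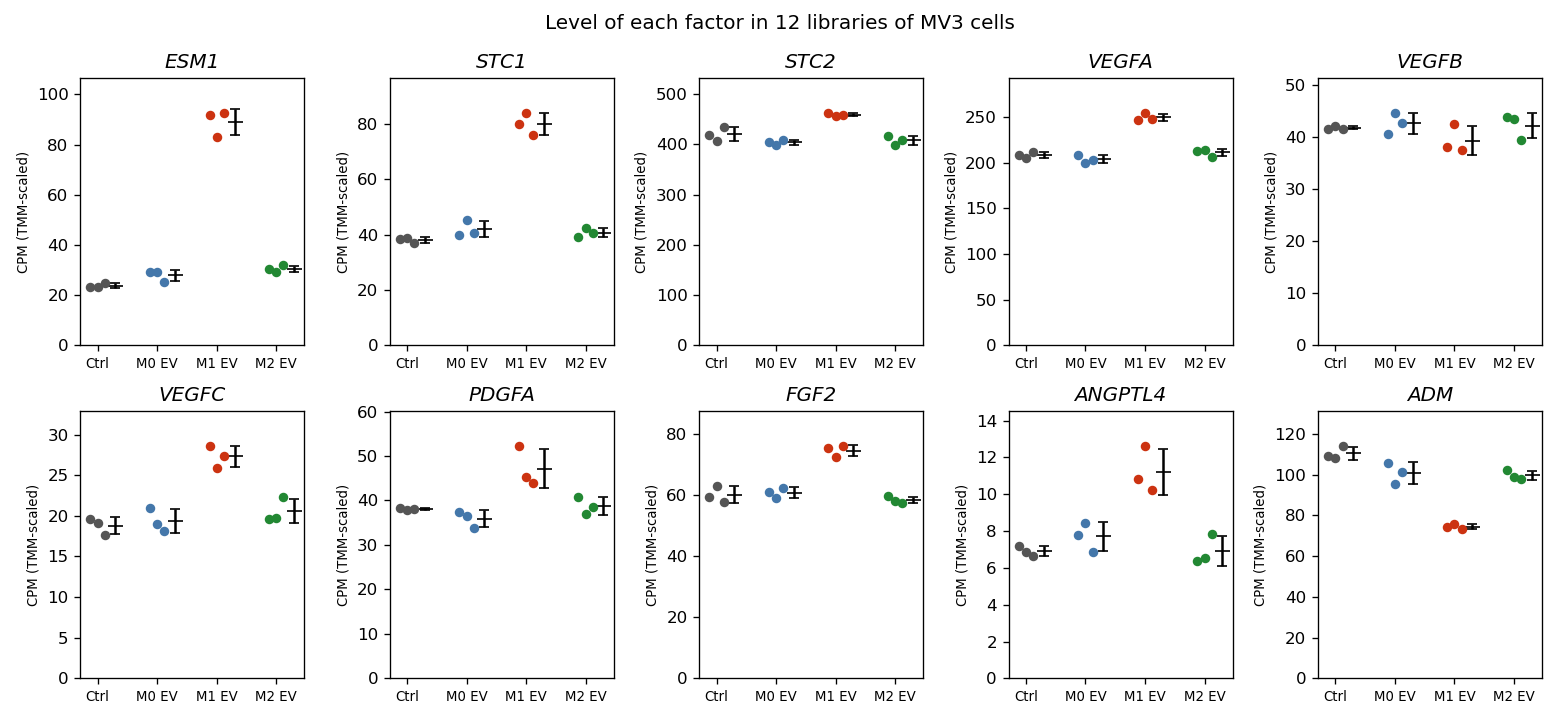
Level of each of the 10 factors (vertical axis, TMM-scaled CPM from 0) in the 12 libraries by group (horizontal axis). Points are libraries and black bars the mean with SD over 3 libraries. The M1 EV points of ESM1 lie at 83.15 to 92.51 CPM, above the 23.11 to 31.88 CPM of the other 9 libraries, and those of ADM lie below all others.

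With M1 vesicles, 8 of the 10 factors were higher than in Ctrl, ADM was lower, and VEGFB did not pass the test. The test was edgeR's quasi-likelihood test with Benjamini-Hochberg adjustment over all tested genes, called at an adjusted p below 0.05. For comparison, 28.2% of all tested genes were called in M1 EV against Ctrl, 14.5% higher and 13.7% lower. The members' median log2 fold change was 0.31, beside 0.0016 over all tested genes. In the same 9 factors the 3 M1 EV libraries lay outside the range of the other 9 libraries, above in 8 and below in 1, which held for 12.6% and 11.5% of tested genes (24.1% in all). M1 EV and Ctrl alone did not overlap in the same 9, and in 39.7% of tested genes. Because the members were chosen with earlier results of these data known, these comparisons describe the 10 genes. They do not test angiogenic factors as a group. Bulk RNA cannot tell more RNA per cell from more cells that make it.

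ESM1, on chromosome 5 (54977867 to 54985593 in RefSeq's GRCh38.p14, the build of all gene positions here), had the largest change of the 10. It stood at 23.11, 23.34 and 24.95 CPM in the Ctrl libraries and at 91.81, 83.15 and 92.51 CPM in the M1 EV libraries, from 227 to 281 and 890 to 942 counts. All M1 EV values were more than 3 times any Ctrl value. The rise was 3.73-fold (log2 fold change 1.90 ± 0.060, SE; edgeR adjusted p = 1.44e-25), the 26th largest of the 13125 genes. The M0 EV libraries had 29.21, 29.16 and 25.25 CPM and the M2 EV libraries 30.29, 29.28 and 31.88 CPM. Both groups lay just above Ctrl and far below M1 EV. M2 EV was higher than Ctrl by 1.28-fold (0.35 ± 0.072, edgeR adjusted p = 0.0413), the only call of a member outside the comparisons with M1 EV, where 0.0457% of tested genes were called, 0.0152% higher. M0 EV stood at 0.22 ± 0.075 against Ctrl (adjusted p = 0.686). M2 EV and M0 EV did not overlap, but their difference of 0.13 ± 0.068 did not pass either (adjusted p = 1.00). The order of means was thus Ctrl, M0 EV, M2 EV and M1 EV, with neighbours below M1 EV not separated by the test. The M2 EV call was kept under 12 of 21 alternatives with an adjusted p (0.00106 to 0.475), while the size stayed at 0.32 to 0.39. It was lost without any 1 of the Ctrl or M2 EV libraries (adjusted p from 0.0953 without Ctrl replicate 2 to 0.475 without Ctrl replicate 1), without M0 EV replicate 2 (0.0656), with limma-voom (0.0527) and with the second transcript (0.0643).

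STC1, on chromosome 8 (23841929 to 23854806), had the second largest rise. Its Ctrl values were 38.31, 38.87 and 36.85 CPM and its M1 EV values 80.15, 83.97 and 76.11 CPM. The M1 EV libraries were all about 2 times the Ctrl level, and no other library came near them: the M0 EV libraries had 40.03, 45.52 and 40.79 CPM and the M2 EV libraries 39.18, 42.47 and 40.63 CPM. The log2 fold change of M1 EV against Ctrl was 1.08 ± 0.055 (2.11-fold, edgeR adjusted p = 8.06e-19). All M0 EV and M2 EV values lay above all Ctrl values, by 0.14 ± 0.061 and 0.11 ± 0.060 on the log2 scale, without passing the test (adjusted p = 0.920 and 0.872). STC2, its paralog on chromosome 5 (173314723 to 173328414), was at 417.8, 406.9 and 434.4 CPM in Ctrl and at 462.0, 456.8 and 457.9 CPM in M1 EV. The groups did not overlap, yet the rise was small, 1.09-fold (0.13 ± 0.032, adjusted p = 0.00172). The 2 stanniocalcins thus shared a direction and differed in size, a difference that was not tested.

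Of the VEGF ligands, VEGFC and VEGFA rose and VEGFB did not pass. VEGFC, the lymphatic factor, on chromosome 4 (176683538 to 176792922), had 19.61, 19.13 and 17.67 CPM in Ctrl and 28.57, 25.95 and 27.40 CPM in M1 EV, which is 1.45-fold (log2 fold change 0.54 ± 0.076, edgeR adjusted p = 5.12e-07). Its highest value outside M1 EV was 22.29 CPM, in M2 EV replicate 3. VEGFA, on chromosome 6 (43770211 to 43786487), was at 209.0, 205.2 and 211.3 CPM in Ctrl and 247.2, 254.3 and 248.4 CPM in M1 EV. The replicates were tight (SD 3.0 and 3.8 CPM), and the rise was 1.20-fold (0.26 ± 0.034, adjusted p = 1.03e-07). VEGFB, on chromosome 11 (64234584 to 64239264), had 41.51, 42.06 and 41.56 CPM in Ctrl and 37.96, 42.39 and 37.52 CPM in M1 EV. Here M1 EV replicate 2 was above every Ctrl library and the other two M1 EV libraries below them, and the difference of -0.083 ± 0.061 did not pass (adjusted p = 0.342). In none of the 22 alternatives was VEGFB called.

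The VEGFA table rows do not separate its splice forms. Of the 19 other VEGFA transcripts, 18 had at least 90% of the counts of the transcript used, and the lowest had 65.45%. Its share of the transcript used was 65.26% ± 0.85 (SD, n = 3) in Ctrl and 65.68% ± 2.24 in M1 EV, so the groups were within 1 SD of each other. Taking the transcript with the second most counts gave VEGFA 0.26, VEGFB -0.086, ESM1 1.90 and ANGPTL4 0.68 on the log2 scale in M1 EV against Ctrl. The shorter ESM1 transcript held 92.38% ± 1.24 of the counts of the longer one in Ctrl and 91.98% ± 0.43 in M1 EV. The noncoding ANGPTL4 transcript held 35.15% ± 1.07 in Ctrl, 36.03% ± 2.97 in M0 EV, 37.73% ± 0.77 in M1 EV and 32.54% ± 2.42 in M2 EV.

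The mitogens PDGFA and FGF2 rose by similar amounts. PDGFA, on chromosome 7 (497258 to 520700), went from 38.31, 37.94 and 38.10 CPM in Ctrl to 52.20, 45.32 and 44.00 CPM in M1 EV. The M1 EV libraries were all higher, replicate 1 most of all, and the rise of 1.24-fold (log2 fold change 0.30 ± 0.062, edgeR adjusted p = 0.000183) was 0.23 without that library (adjusted p = 0.00691). FGF2, on chromosome 4 (122826682 to 122898236), went from 59.32, 63.13 and 57.72 CPM to 75.41, 72.36 and 76.01 CPM, or 1.24-fold (0.31 ± 0.048, adjusted p = 2.02e-06). FGF2 shares 5660 bases with NUDT6, a gene annotated as its antisense partner, and although the libraries were directional, the labels do not say if strand was used in counting. NUDT6 stood at 12.16 CPM in Ctrl and 12.86 CPM in M1 EV (0.082 ± 0.095, adjusted p = 0.609). In M1 EV against M2 EV both were higher, FGF2 by 0.35 ± 0.046 (adjusted p = 1.32e-07) and NUDT6 by 0.33 ± 0.095 (adjusted p = 0.0079). Annotated lncRNAs overlap PDGFA (LOC105379749 over 8185 bases and PDGFA-DT over 310), FGF2 (LOC124900773 over 3406) and VEGFC (HAFML over 22606). These overlaps, that of NUDT6 included, are of whole gene spans with introns, and exons were not compared. Without strand, reads from any shared exon sequence cannot be told apart.

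ANGPTL4 and ADM, both known hypoxia targets, changed in opposite directions in M1 EV. ANGPTL4, on chromosome 19 (8364155 to 8374370), was the factor with the fewest counts and had 7.20, 6.89 and 6.66 CPM in Ctrl and 10.83, 12.61 and 10.21 CPM in M1 EV. Every M1 EV library was above every other library, with a rise of 1.63-fold (log2 fold change 0.70 ± 0.12, edgeR adjusted p = 1.05e-05) that carried the widest error of the 10. ADM, on chromosome 11 (10305073 to 10307397), had 109.3, 108.0 and 113.9 CPM in Ctrl and 74.38, 75.84 and 73.07 CPM in M1 EV. It was lower in all 3 M1 EV libraries, falling 1.48-fold (-0.57 ± 0.045, adjusted p = 3.87e-13). The other vesicles gave 105.8, 95.12 and 101.3 CPM with M0 and 102.2, 98.75 and 97.70 CPM with M2. These 6 values all lay between the Ctrl and the M1 EV values, at -0.13 ± 0.042 and -0.15 ± 0.042 against Ctrl, and neither difference passed over all genes (adjusted p = 0.614 and 0.184).

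**Figure D2:**
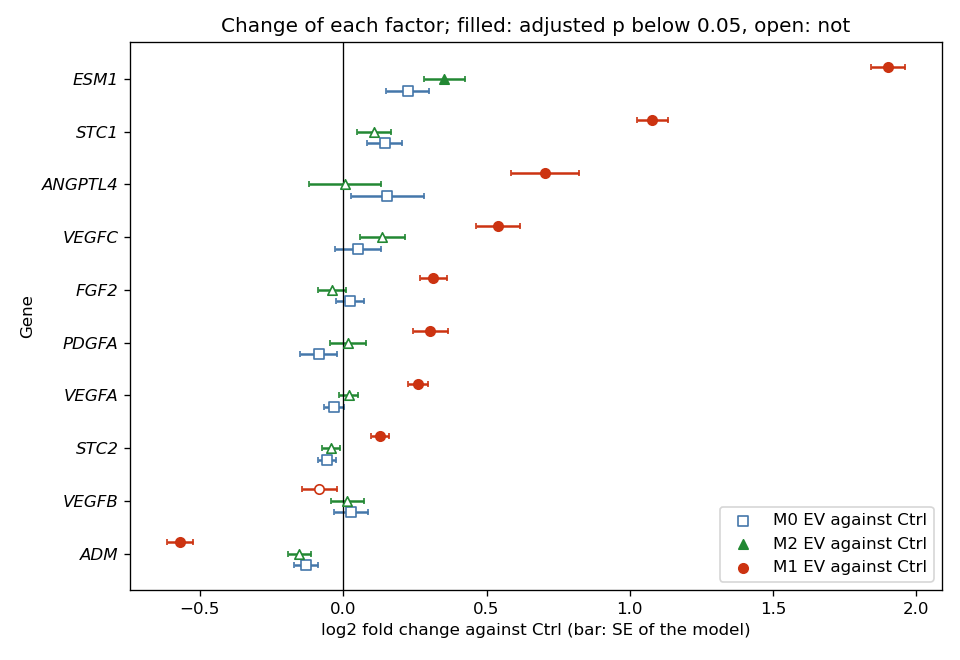
Log2 fold change against Ctrl (horizontal axis, bars are the SE of the model) of each factor (vertical axis, ordered by the M1 EV value) with M0 (squares), M2 (triangles) and M1 vesicles (circles); filled symbols have an adjusted p below 0.05. The M1 EV circles spread from -0.57 (ADM) to 1.90 (ESM1), and of the M0 EV and M2 EV symbols only that of ESM1 with M2 is filled. The 3 comparisons share the Ctrl libraries.

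No factor was called in M0 EV against Ctrl, where edgeR called 0.0152% of all tested genes. At an unadjusted p below 0.05 there were 3 of the 10 (ESM1, STC1 and ADM), beside 5.03% of all genes, and DESeq2 and limma-voom called none. M0 EV and Ctrl did not overlap in 4 factors (ESM1 and STC1 above, ADM and PDGFA below) and in 10.2% of tested genes. The 7 factors without such a p ranged from -0.085 ± 0.064 (PDGFA) to 0.15 ± 0.13 (ANGPTL4) on the log2 scale. In M2 EV against Ctrl the 9 factors beside ESM1 ranged from -0.15 ± 0.042 (ADM) to 0.14 ± 0.078 (VEGFC). The groups did not overlap in 4 (ESM1, STC1 and VEGFC above, ADM below) and in 11.7% of tested genes. ESM1 and ADM had an unadjusted p below 0.05 there, beside 6.13% of all genes. Between M2 EV and M0 EV none was called and none had an unadjusted p below 0.05, where 3.37% of all genes did, and 0% were called. DESeq2 and limma-voom also called none of the 10 there. Only ESM1 did not overlap between them, as 8.94% of tested genes. The largest difference in size between these groups was -0.15 ± 0.12, for ANGPTL4.

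Set against the other vesicles, M1 vesicles gave the same 9 calls as against Ctrl. In M1 EV against M0 EV, 8 factors were higher and ADM lower, where 25.4% of tested genes were called, 13.1% higher and 12.3% lower. The same 9 did not overlap, nor did 36.6% of tested genes. ESM1 was 3.19-fold higher (log2 fold change 1.68 ± 0.057, edgeR adjusted p = 1.93e-24), STC1 1.91-fold and ANGPTL4 1.46-fold. ADM was at -0.44 ± 0.045 (adjusted p = 4.91e-10). In M1 EV against M2 EV the counts were again 8 higher and 1 lower, where 24.6% of tested genes were called, 12.8% higher and 11.8% lower. The groups did not overlap in these 9 and in 36.5% of tested genes. ESM1 was 2.92-fold higher (1.55 ± 0.055, adjusted p = 5.81e-24), STC1 1.96-fold, ANGPTL4 1.62-fold and VEGFC 1.32-fold. ADM was at -0.42 ± 0.045 (adjusted p = 1.34e-09). VEGFB was not called in either (adjusted p = 0.188 and 0.250). These 3 comparisons share the M1 EV libraries. With M0 EV replicate 1 left out, whose counts varied from those of replicates 2 and 3 with 2.01 and 2.32 times the variance of counting noise, the same number of members (9) was called in each of the 3.

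Other genes of vessel signalling did not move as one in M1 EV against Ctrl. The counts of the 6 lists that follow are to be read against all tested genes, of which 14.5% were called higher and 13.7% lower. Of 25 further secreted angiogenic ligands, 17 were tested, 3 rose and 5 fell, with a median log2 fold change of -0.13. HBEGF, a heparin-binding EGF receptor ligand, went from 18.91 to 30.01 CPM (0.66 ± 0.072, edgeR adjusted p = 2.09e-09) and the matricellular CCN1 rose by 0.20, while FGF5 and FGF1 fell by 0.32 and 0.70 on the log2 scale. The largest rise and fall of the list, named after their values were seen, were at low levels. EDN1 went from 0.873 to 1.88 CPM (1.10 ± 0.30) and APLN from 4.19 to 2.25 CPM (-0.88 ± 0.19). Among 15 secreted inhibitors of angiogenesis, 11 were tested, 2 rose and 5 fell (median -0.25), where 14.5% of all tested genes rose and 13.7% fell. THBS1 (thrombospondin 1) rose from 411.2 to 662.3 CPM (0.69 ± 0.033, adjusted p = 1.14e-19). TIMP2, SPARC and the semaphorin SEMA3A fell by 0.43, 0.25 and 0.54. Factors and inhibitors therefore each held genes that went up and genes that went down.

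Many receptors for these factors were absent or low in the cells, and others were expressed. Of 21, 6 had no count in any library, among them FLT4, a VEGFC receptor, and RAMP2 and RAMP3, which form adrenomedullin receptors with CALCRL. KDR, the main VEGFA receptor, had 3, 1, 1 and 0 counts in Ctrl, M0 EV, M1 EV and M2 EV, and FLT1 had 1 count in all. Of the 9 tested, 3 rose (NRP2, MET and EDNRA) and 2 fell (median -0.041), where 14.5% of all tested genes rose and 13.7% fell. The co-receptor NRP2, which binds VEGFC, went from 49.68 to 87.47 CPM (log2 fold change 0.82 ± 0.048, edgeR adjusted p = 9.71e-17), and NRP1, which binds VEGFA, had -0.12 ± 0.032 (adjusted p = 0.00478). PDGFRB fell by 0.59 and the HGF receptor MET rose by 0.15. FGFR1 and PDGFRA, which the rule for naming did not take, stood at 78.59 and 17.81 CPM in Ctrl. In M1 EV they stood at 76.34 and 17.07 CPM, and neither was called (edgeR adjusted p = 0.558 and 0.631).

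Processing enzymes and binding partners of the factors were also mixed. Of 15 tested among 22, 2 rose and 5 fell (median -0.10), where 14.5% of all tested genes rose and 13.7% fell, and with DESeq2 4 were called in place of 7. PAPPA, the metalloprotease that stanniocalcins bind and inhibit, rose from 24.53 to 44.73 CPM (log2 fold change 0.87 ± 0.068, edgeR adjusted p = 3.25e-13). IGFBP4, its substrate, went from 131.2 to 92.44 CPM (-0.51 ± 0.040, adjusted p = 4.72e-13). PAM, the enzyme that amidates peptides such as adrenomedullin, fell by 0.27 and the heparan sulfate proteoglycan GPC1 by 0.46. IGFBP5, named after its value was seen, had the largest fall of the list, from 1.12 to 0.228 CPM (-2.26 ± 0.46, adjusted p = 0.000189). Such levels rest on few counts. With a filter at a mean of at least 1 CPM, 6 genes of the list were called in place of 7.

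Targets and regulators of the hypoxia pathway were measured beside the factors. Of 24 tested hypoxia-inducible factor targets among 25, 6 rose and 6 fell (median log2 fold change 0.050), where 14.5% of all tested genes rose and 13.7% fell. PFKFB3 and HK2, which act in glycolysis, rose by 0.33 and 0.29, and the mitophagy receptor BNIP3L and the glucose transporter SLC2A1 fell by 0.27 and 0.20. CA9, named after its value was seen, had the largest change of the targets, from 3.55 to 2.08 CPM (-0.77 ± 0.20, edgeR adjusted p = 0.00335). Among 17 transcription regulators, 5 rose and 3 fell (median 0.0015), beside the same shares of all genes. These regulators belong to several pathways, and HIF1A, EPAS1, ARNT and VHL are those of the hypoxia pathway. NFKB1, an NF-kB subunit, went from 84.82 to 129.2 CPM (0.61 ± 0.042, edgeR adjusted p = 1.17e-14), and RELA and ETS1 rose by 0.20 and 0.18. KLF4 fell by 0.51. HIF1A, which the rule for naming did not take, was among the 9 regulators not called. It stood at 377.6 and 378.1 CPM (0.0015 ± 0.033, adjusted p = 0.982). VHL, also outside that rule, was called and went from 66.97 to 77.40 CPM (0.21 ± 0.050, edgeR adjusted p = 0.00134). EPAS1 and ARNT were not called (adjusted p = 0.0777 and 0.875). These are RNA levels, and the activity of the hypoxia-inducible factors was not tested. No gene of these 6 lists was called by edgeR in M0 EV or M2 EV against Ctrl, where 0.0152% and 0.0457% of all tested genes were called, so a count of 0 says nothing particular about these lists.

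**Figure D3:**
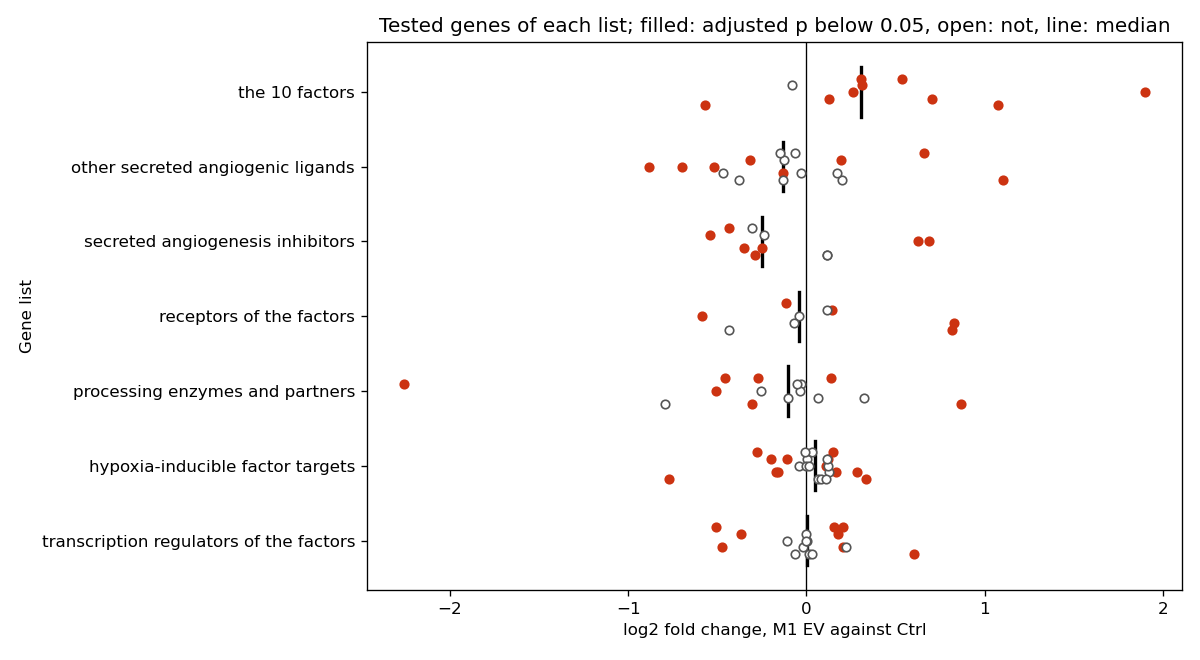
Log2 fold change in M1 EV against Ctrl (horizontal axis) of the tested genes of each list (vertical axis); filled points have an adjusted p below 0.05 and black lines are medians. The median of the 10 factors is 0.31, and those of the other 6 lists run from -0.25 to 0.050; vertical offsets within a list only separate points.

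The genes whose profiles lay nearest those of ESM1, STC1 and ADM were found by the root-mean-square difference of centred log2 CPM over the 12 libraries, among 12012 genes with at least 1 CPM. Nearest to ESM1 were TMEM132A (0.12 on the log2 scale), the mitochondrial superoxide dismutase SOD2 (0.12) and the NF-kB subunit RELB (0.13). SOD2 went from 47.23 CPM in Ctrl to 161.6 CPM in M1 EV, with 50.28 and 50.77 CPM in M0 EV and M2 EV. Nearest to STC1 were the NF-kB inhibitor TNIP1 (0.081), the AP-1 subunit JUNB (0.084) and GDNF, a neurotrophic factor (0.086). TOX2, OBSL1 and PRSS23 were nearest to ADM (0.033, 0.040 and 0.042). TOX2 fell from 125.1 CPM in Ctrl to 85.72 CPM in M1 EV and had 117.0 and 115.3 CPM with M0 and M2 vesicles. The 12 points share their groups, and the M1 EV mean is the extreme one in each of these genes.

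**Figure D4:**
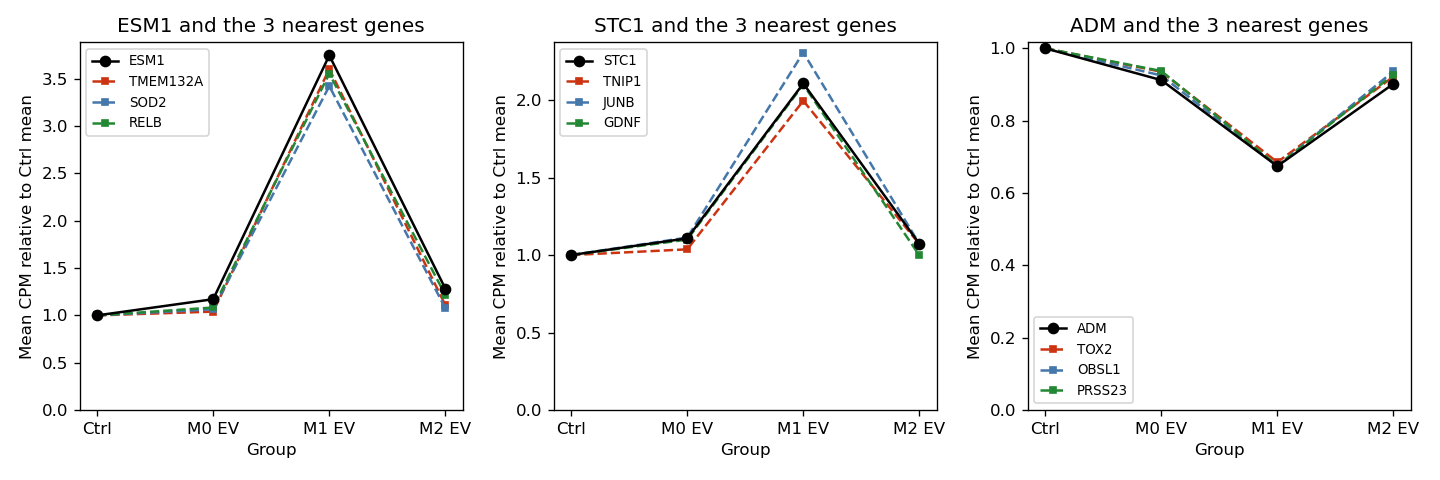
Mean CPM of each group relative to the Ctrl mean (vertical axis, from 0) in the 4 groups (horizontal axis) for ESM1, STC1 and ADM (black) and the 3 nearest genes of each (coloured). The lines run close together in each panel, with M1 EV the extreme group.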

How the data were processed

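Per the submitters' processing notes the authors used STAR 2.6.1b, HOMER 4.10 and the hg38 build, with no role given for each tool. The deposited values are expected counts for 70507 RefSeq transcripts, not normalized, in multiples of 0.5. Transcripts were named with RefSeq (69830) and GENCODE release 29 (344), and 333 without a name were left out. Each gene took its transcript with the most counts, rounded to whole counts. A column spelled MV in place of MV3 was taken as M0 EV replicate 1.

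In R 4.3.3 with edgeR 4.0.16, 13125 genes passed the default filter and were scaled by TMM. A quasi-likelihood model with 1 term per group was fitted to all 12 libraries and tested 2-sided, with adjustment over all genes of a comparison. Alternatives used DESeq2 1.42.0 and limma 3.58.1 among others. The test was tried on simulated data.

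Members, lists, motifs and the rule for names were chosen with earlier results of these data known. The rule took all members, up to 4 called genes of each list with the smallest adjusted p, and the 3 nearest profiles of 3 members. Of the 4 tested melanoma markers, AXL and SOX9 fell by 0.34 and 0.41 on the log2 scale in M1 EV against Ctrl. EGFR (0.074 ± 0.042) and MLANA (0.45 ± 0.35) were not called. The macrophage marker CD68 rose by 0.24, and none of the 5 tested endothelial markers was called.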

Additional observations from a re-analysis of the deposited data

How the results depend on the processing

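Of 1312 values of the members under 22 alternatives, 1303 kept their side of the threshold and, where called, their direction. The other 9 were all ESM1 in M2 EV against Ctrl, and DESeq2 gave 8 members, ESM1 among them, no adjusted p in that comparison. Of 697 values not called, 16 had another sign. Members called in M2 EV against Ctrl went from 1 to 0 with limma-voom and the second transcript, and with DESeq2 the count of 0 follows from the missing adjusted p of ESM1. It was 0 to 1 when a library was left out. The 9 calls of M1 EV against Ctrl, M0 EV and M2 EV were kept throughout. Genes called in M0 EV against Ctrl (2) came to 1 with DESeq2, 51 with no low-count filter, 20 with the replicate block, 1 with M0 EV replicates 2 and 3 summed (chosen after seeing the data, as their counts varied with 1.03 times the variance of counting noise), and 0 to 86 without a library (86 without M0 EV replicate 1). In M2 EV against Ctrl (6) they came to 2 with DESeq2, 33 with no filter, 62 in a fit of the 2 groups alone, and 0 to 49 without a library (49 without M0 EV replicate 1). M1 EV against M2 EV went from 3232 to 2102 with DESeq2. M2 EV against M0 EV went from 0 to 12 with no filter, 1 with the replicate block, and 0 to 37 without a library (37 without M0 EV replicate 1). The cause was not tested. Same-numbered libraries of different groups had correlations of -0.18 to 0.28 (18 pairs), and 6 of 12 libraries correlated best with their own number. These values do not decide whether same-numbered libraries were paired. The main fit had no replicate block by design, and adding the block changed no call of a member. ANGPTL4 had 65 to 138 counts per library and the widest SE of the 10 in M1 EV against Ctrl (0.12).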
